A study of Homo sapiens with 24 samples.

Results

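The E2F transcription factors and the pocket proteins that hold them were described at the messenger RNA level in 2 EGFR-mutant lung cancer lines. The members were chosen by name, E2F1 to E2F8 with RB1 and RBL2, and these 10 genes are 10 of the 25365 rows of the deposited expression table. The lines were PC9 and HCC4006, each as control cells (CTRL) and as YAP1 knockout cells (YAP1 KO). YAP1 is a transcriptional coactivator of the Hippo pathway. Each of the 4 cell populations received either DMSO, the solvent, or OT, which is osimertinib at 100 nM plus trametinib at 30 nM, for 24 hours. Osimertinib inhibits the mutant EGFR kinase and trametinib inhibits MEK, the kinase upstream of ERK. This gave 8 groups of 3 libraries, 24 in all, with 12 per line. The labels describe the 3 libraries of a group as triplicate dishes, so the p-values measure the spread between dishes. The table's headers carry a single YAP1 KO designation per line, so a difference between genotypes cannot be told apart from a difference between those particular populations.

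E2F factors bind promoters of genes needed for DNA synthesis and cell division, most of them together with a TFDP partner. E2F1, E2F2 and E2F3 are called activators. E2F4 and E2F5 work mainly as repressors with pocket proteins, E2F6 represses without them through Polycomb complexes, and the atypical E2F7 and E2F8 repress without a TFDP partner or a pocket protein. RB1 and RBL2 (also called p130) bind E2F factors until cyclin-dependent kinases phosphorylate them, and RBL2 with E2F4 is part of the DREAM complex of resting cells. In lung cancer cells driven by EGFR, signalling through ERK supports cyclin D and thereby the kinases that release E2F factors.

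Since several E2F genes are known to carry E2F sites of their own, the bases before their start sites were searched for the E2F consensus. RefSeq promoter sequences (GRCh38.p14) were at hand for 8 of the 10 members, and each search covered the 250 bases before a start site on both strands. The 8-letter words searched were TTTCCCGC, TTTCGCGC, TTTGCCGC and TTTGGCGC, and 2.79% of 35116 promoter windows of this length held at least 1. The 7-letter words are these without their first T, so each lies inside an 8-letter word, and 10.9% of windows held at least 1. The 4 windows with a match are shown because they belong to the activators E2F1, E2F2 and E2F3 and to the atypical E2F7, and capitals mark the words that matched. They are E2F1 at chr20:33686386-33686635 on the minus strand, E2F2 at chr1:23531234-23531483 on the minus strand, E2F3 at chr6:20401629-20401878 on the plus strand and E2F7 at chr12:77065570-77065819 on the minus strand, all written 5′ to 3′ and ending 1 base before the gene starts.
E2F1: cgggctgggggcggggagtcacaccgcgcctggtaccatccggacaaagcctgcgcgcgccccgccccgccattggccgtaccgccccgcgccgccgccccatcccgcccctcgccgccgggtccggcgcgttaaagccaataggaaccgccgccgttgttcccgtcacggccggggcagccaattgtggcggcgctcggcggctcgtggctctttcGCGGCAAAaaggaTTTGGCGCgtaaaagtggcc
E2F2: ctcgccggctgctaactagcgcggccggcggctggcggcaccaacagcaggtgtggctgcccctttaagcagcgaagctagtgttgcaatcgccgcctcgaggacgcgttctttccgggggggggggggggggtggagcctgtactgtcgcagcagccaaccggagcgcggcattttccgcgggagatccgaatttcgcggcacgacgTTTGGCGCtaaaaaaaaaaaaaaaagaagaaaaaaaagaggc
E2F3: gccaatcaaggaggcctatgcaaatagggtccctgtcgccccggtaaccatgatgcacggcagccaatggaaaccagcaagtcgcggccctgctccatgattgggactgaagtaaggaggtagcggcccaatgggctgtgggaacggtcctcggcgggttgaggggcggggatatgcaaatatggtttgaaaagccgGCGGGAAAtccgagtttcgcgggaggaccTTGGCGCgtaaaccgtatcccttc
E2F7: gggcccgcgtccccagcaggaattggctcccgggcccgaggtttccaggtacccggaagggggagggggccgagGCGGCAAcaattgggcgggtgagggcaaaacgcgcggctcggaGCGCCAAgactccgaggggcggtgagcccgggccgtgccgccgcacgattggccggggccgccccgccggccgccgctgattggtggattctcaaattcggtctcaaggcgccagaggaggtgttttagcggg
E2F1 held 2 of the 8-letter words within 33 bases of its start, 1 on each strand, while E2F2 held 1 that begins 42 bases before its start. E2F3 held 1 of 8 letters at 53 bases and 1 of 7 letters at 24 bases, and it was the only window of the members with the cell cycle homology region word TTTGAA, which 13.3% of all windows hold. E2F7 held only 7-letter words, the first at 176 bases and the second at 133 bases before its start. The windows of E2F4, E2F6 and RBL2 and a second start of E2F3 held none of these words. The RB1 window lay inside the gene and away from its first base, and was not read. Such a match describes letters and was not tested as a binding site, and no match says only that the letters are not in that window.

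YAP1 itself, the targeted gene, was lower in the YAP1 KO libraries of both lines. In PC9 its mean was 42.9 ± 0.415 FPKM (SD, n = 3) in CTRL and 12.1 ± 0.398 in YAP1 KO cells under DMSO, and in HCC4006 18.2 ± 1.62 and 4.24 ± 0.344. FPKM are fragments per kilobase of transcript scaled to the mapped fragments, so levels of different genes are compared here per length. Libraries of a group correlated at 0.980 to 0.991 (Pearson r across genes on the log2 scale), and the sum of FPKM lay between 507120 and 660459. Relative depth, read from the smallest steps in low genes, ran from 0.946 to 1.41, while absolute depth is unknown. All 8 epithelial markers reached 1 FPKM in both lines. Of 4 lung lineage markers none did so in PC9, where their sum was 0.244 to 1.34 FPKM, and 2 (NKX2-1 and NAPSA) did in HCC4006. Of markers of other cell types PC9 had COL1A1 as 1 of 6 fibroblast genes, CD68 as 1 of 5 immune genes and 0 of 4 endothelial genes at 1 FPKM, with sums over its libraries of 1.38 to 2.71, 29.4 to 39.9 and 0.541 to 1.16 FPKM. HCC4006 had 2 fibroblast (COL1A1, COL1A2), 2 immune (CD68, LYZ) and 1 endothelial gene (KDR) at that level. No library listed any of the 10 members at 0. E2F2 and E2F7 in both lines and E2F8 in HCC4006 reached 1 FPKM only in DMSO libraries, so they entered the tests through the group in which they were high.

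E2F4 was the most abundant member per length in all 8 groups, and E2F1 was second in all 4 DMSO groups. In PC9 CTRL cells under DMSO the order of mean FPKM was E2F4 (36.0), E2F1 (28.1), RBL2 (14.7), E2F3 (11.3), E2F5 (10.0), E2F8 (8.27), E2F6 (6.55), RB1 (6.51), E2F7 (3.65) and E2F2 (2.03). The only neighbours in that order whose libraries overlapped were E2F6 and RB1. In HCC4006 CTRL cells under DMSO it was E2F4 (42.9), E2F1 (17.7), RB1 (12.1), RBL2 (8.64), E2F7 (5.62), E2F6 (5.28), E2F3 (3.25), E2F8 (3.05), E2F5 (2.85) and E2F2 (1.41). Overlaps there lay between E2F7 and E2F6, between E2F3 and E2F8 and between E2F8 and E2F5. Under OT RBL2 took second place in all 4 groups. E2F1 moved to place 5 in PC9 CTRL cells and to place 7 in the other 3 OT groups, where it overlapped its lower neighbour in 2 of them. E2F2 was the lowest member in 7 of the 8 groups, and in HCC4006 CTRL cells under OT it (0.141 FPKM) and E2F8 (0.139) overlapped.

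**Figure D1:**
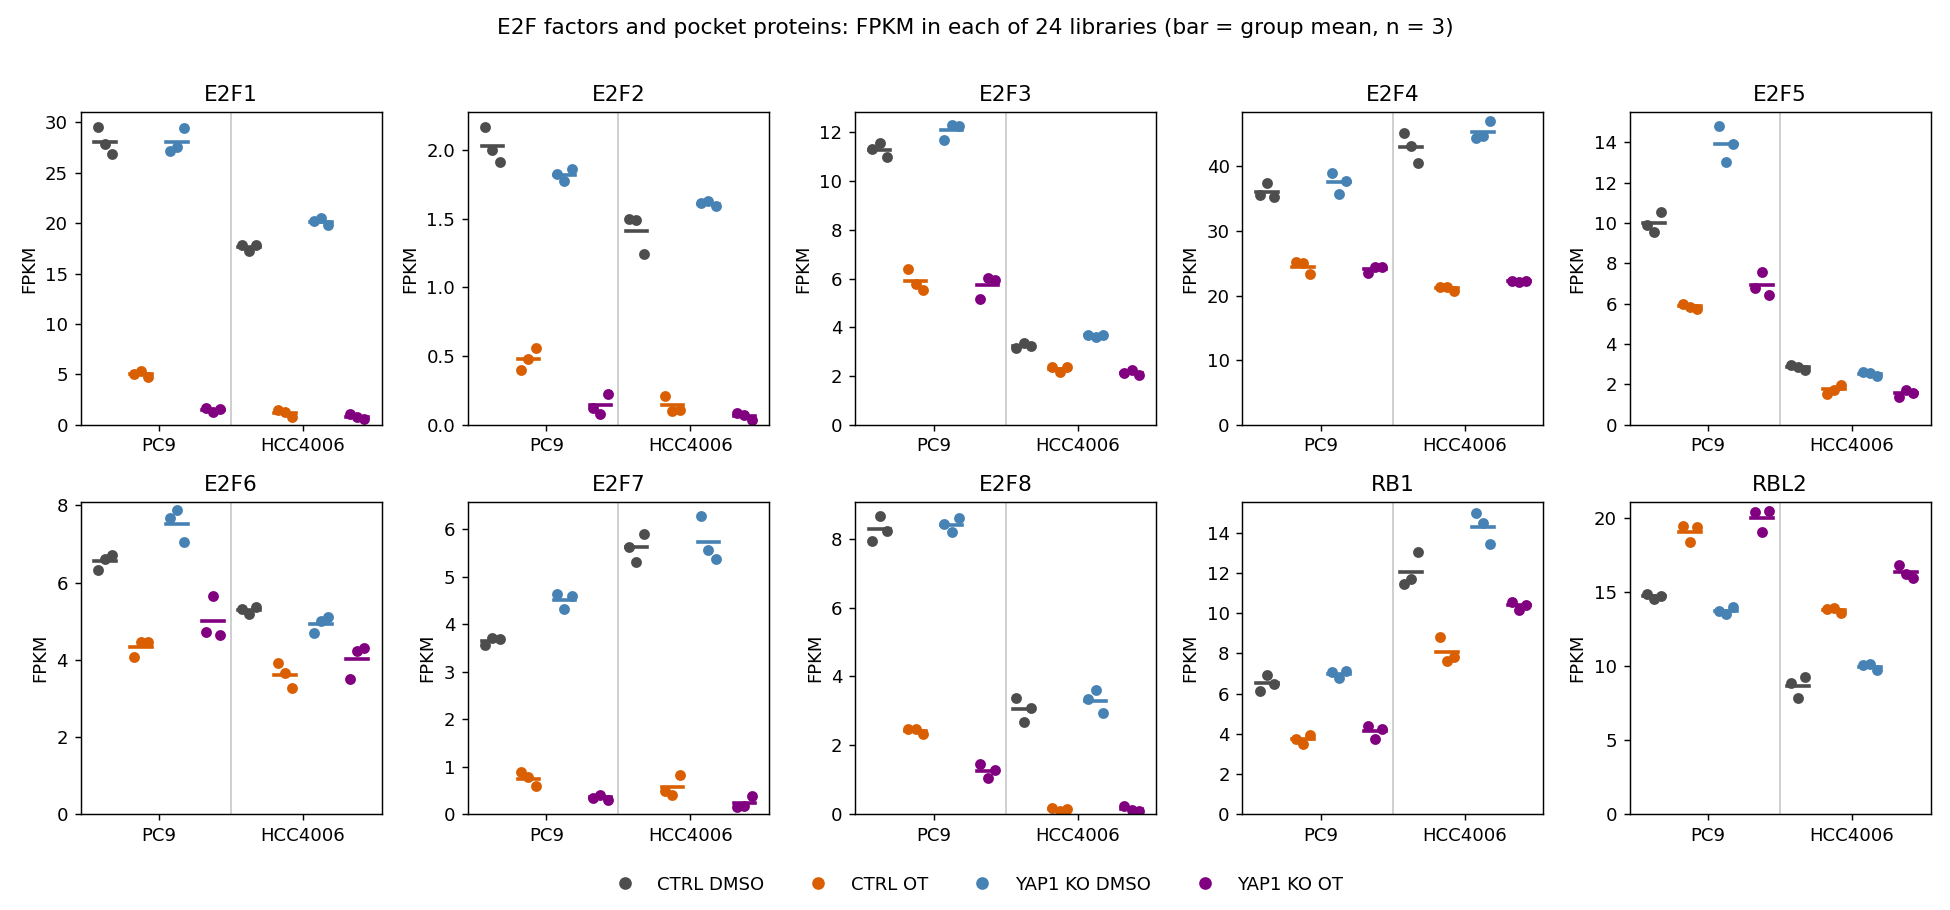
FPKM of the 10 members in each of the 24 libraries, 1 panel per gene with its own linear axis from 0; points are libraries, bars are group means (n = 3), colours are the 4 groups of a line, PC9 left and HCC4006 right. E2F1 falls from about 28.1 to 5.05 and 1.5 FPKM in PC9 CTRL and YAP1 KO cells, and RBL2 is the only gene that is higher under OT in both lines and both genotypes.

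OT changed all 10 members in CTRL cells of both lines, 9 of them downward. Of the 12685 genes tested in PC9, 73.0% were called, with 32.0% higher and 40.9% lower. Of the 13113 tested in HCC4006, 81.6% were called, with 45.0% higher and 36.6% lower (limma, Benjamini-Hochberg adjusted p under 0.05). With so many genes called, that all members were called is little above the background, whereas 9 of 10 lower compares with 40.9% and 36.6% lower among all genes. Of the 9, E2F2 and E2F7 in both lines and E2F8 in HCC4006 passed the filter only through DMSO libraries. Their falls were favoured by the filter and are no support for that contrast. On the log2(FPKM + 1) scale the members had a median change of -0.76 in PC9, beside -0.04 over all genes, and of -0.75 in HCC4006, beside 0.09. This scale understates changes of genes near or below 1 FPKM, so percentages of mean FPKM are given as well. In bulk RNA, fewer cells of a type and less RNA per cell cannot be told apart. The proliferation marker MKI67 moved with the members, by -1.10 in PC9 and -2.93 in HCC4006, and its part in the result was not tested. In HCC4006 the summed markers of other cell types moved with OT too. In CTRL cells the 6 fibroblast genes summed to 3.5 to 3.84 FPKM under DMSO and 19.3 to 20.5 under OT, the 5 immune genes to 21.4 to 23.9 and 82.6 to 84.6, and the 4 endothelial genes to 0.289 to 0.397 and 5.30 to 6.68. In YAP1 KO cells these sums were 2.37 to 2.66 and 7.29 to 7.71, 21.0 to 23.4 and 107.6 to 110.1, and 0.224 to 0.267 and 4.61 to 5.40. COL1A2, CD68 and KDR carried most of these shifts in CTRL cells. The leukocyte marker PTPRC stayed at or below 0.0516 FPKM in HCC4006, the T cell marker CD3E at or below 0.0936 and the endothelial marker PECAM1 at or below 0.0562. Some other listed genes rose with OT in HCC4006 CTRL cells. LYZ went from at most 0.136 to at least 0.646 FPKM and CDH5 from at most 0.0914 to at least 0.326. VWF went from at most 0.0346 to at least 0.113, and COL1A1 from at most 2.30 to at least 3.69. In YAP1 KO cells LYZ, VWF and COL1A1 rose too, while CDH5 did not. The part of these markers in the result was not tested.

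E2F1, the activator that drives entry into S phase, fell furthest on the log2 scale. Its FPKM in PC9 CTRL cells was 29.6, 27.8 and 26.9 under DMSO and 5.0, 5.39 and 4.75 under OT. In HCC4006 CTRL cells it was 17.9, 17.3 and 17.8 under DMSO and 1.49, 1.27 and 0.760 under OT. The treated libraries lay far below the DMSO libraries in both lines, without overlap. OT left E2F1 at 18% of its DMSO level in PC9, a change of -2.27 ± 0.07 (SE, adjusted p 3.47e-11), and at 6.64% in HCC4006, a change of -3.12 ± 0.12 (adjusted p 1.52e-10). E2F2, its low-abundance relative, went from 2.17, 2.0 and 1.91 to 0.401, 0.479 and 0.557 FPKM in PC9 and from 1.5, 1.49 and 1.25 to 0.212, 0.10 and 0.110 in HCC4006. That is 23.6% and 10.0% of DMSO, with log2 changes of -1.03 and -1.08. E2F3, the activator with the mildest change, went from 11.3, 11.6 and 11 to 6.38, 5.77 and 5.54 FPKM in PC9, and from 3.14, 3.35 and 3.25 to 2.38, 2.15 and 2.36 in HCC4006. OT thus left it at 52.2% and 70.7% of DMSO (-0.84 and -0.37), and the 3 activators did not fall by like amounts.

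The repressor E2Fs fell less than E2F1. E2F4, the main partner of RBL2, read 35.6, 37.4 and 35.2 FPKM under DMSO and 25.2, 25.0 and 23.3 under OT in PC9 CTRL cells. In HCC4006 CTRL cells it read 45.2, 43.1 and 40.5 against 21.4, 21.4 and 20.7. The groups did not overlap, and E2F4 kept 68.0% of its level in PC9 (-0.54, adjusted p 1.54e-07). It kept 49.3% in HCC4006 (-0.99, adjusted p 7.38e-10). E2F5, which like E2F4 works with RBL2, kept 58.7% (-0.68) and 61.9% (-0.48). E2F6, the Polycomb-linked repressor, kept 66.0% (-0.50) and 68.3% (-0.45). No repressor fell to less than 49.3% of its DMSO mean in CTRL cells of either line, while E2F1 and E2F2 were left at 23.6% or less. E2F2 passed the filter only through DMSO libraries, so its fall is description and no support for that contrast. The activator E2F3 kept a smaller share than each repressor in PC9 but a larger share than each in HCC4006. The contrast thus does not hold for the activators as a class.

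The atypical E2Fs, which are themselves E2F target genes, fell with E2F1 and E2F2. E2F7 read 3.57, 3.70 and 3.69 FPKM under DMSO and 0.878, 0.777 and 0.590 under OT in PC9 CTRL cells, and 5.62, 5.32 and 5.91 against 0.493, 0.412 and 0.818 in HCC4006. E2F8 read 7.94, 8.65 and 8.22 against 2.48, 2.47 and 2.32 in PC9, and 3.38, 2.68 and 3.10 against 0.175, 0.102 and 0.139 in HCC4006. In each case the OT libraries lay below all DMSO libraries. E2F7 was left at 20.5% in PC9 (-1.42, adjusted p 1.71e-09). In HCC4006 it was left at 10.2% (-2.08, adjusted p 1.55e-09). E2F8 was left at 29.3% (-1.44) and 4.55% (-1.83), the lowest share of any member in HCC4006 CTRL cells. E2F7 in both lines and E2F8 in HCC4006 passed the filter only through DMSO libraries, so their calls are given as description.

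The pocket proteins went opposite ways. RB1, the retinoblastoma protein, read 6.14, 6.90 and 6.48 FPKM under DMSO and 3.74, 3.48 and 3.94 under OT in PC9 CTRL cells, and 11.5, 11.7 and 13 against 8.82, 7.64 and 7.84 in HCC4006. RBL2, the pocket protein typical of resting cells, read 14.8, 14.6 and 14.8 against 19.5, 18.3 and 19.4 in PC9, and 8.84, 7.83 and 9.24 against 13.8, 13.9 and 13.6 in HCC4006. Neither gene's groups overlapped. RB1 fell to 57.1% (-0.67) and 67.1% (-0.52), and RBL2 rose to 130% (0.35, adjusted p 2.98e-06) and 160% (0.62, adjusted p 3.94e-07). RBL2 was the only member that rose. The ratio of RBL2 to RB1 went from 2.27 to 5.14 in PC9 and from 0.717 to 1.71 in HCC4006, while their sum was 21.2 FPKM under DMSO and 22.8 under OT in PC9, and 20.7 and 21.9 in HCC4006.

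In YAP1 KO cells OT again changed all 10 members, 9 lower and RBL2 higher, where 78.3% of all genes were called in PC9, 36.9% higher and 41.4% lower. In HCC4006 the shares were 82.8% called, 46.4% higher and 36.5% lower. The filter limit on E2F2, on E2F7 and, in HCC4006, on E2F8 holds here too. These 2 comparisons share no library with those in CTRL cells, but the 12 libraries of a line share 1 estimate of the spread, so the p-values are not independent. E2F1 fell to 5.34% of DMSO in PC9 and 3.88% in HCC4006, E2F2 to 7.76% and 3.93%, E2F7 to 7.88% and 4.16%, and E2F8 to 15.0% and 4.58%. E2F3 was left at 47.4% and 58.1%, E2F4 at 64.2% and 49.0%, E2F5 at 49.7% and 61.6%, E2F6 at 66.4% and 81.5%, and RB1 at 59.0% and 72.7%. RBL2 rose to 145% and 164%. In all 40 pairs of member and OT comparison the OT and DMSO libraries did not overlap. The share of all genes without overlap was not counted, so this is not read as particular to the members. One call depended on the scaling: when HCC4006 libraries were scaled to the same FPKM sum, E2F6 in YAP1 KO cells changed by -0.08 with an adjusted p of 0.415, against -0.24 and 0.00855 on the deposited values. MKI67 changed by -1.11 and -3.67 in the YAP1 KO cells.

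**Figure D2:**
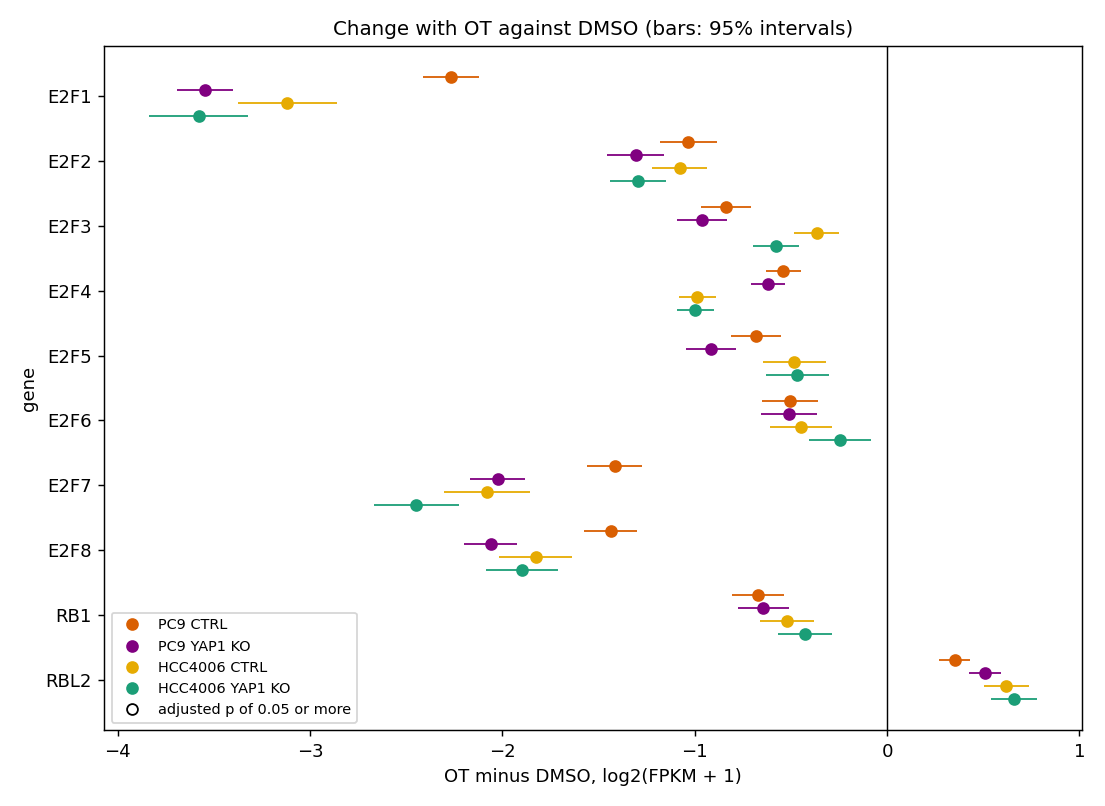
Change with OT on the log2(FPKM + 1) scale (horizontal axis) for the 10 members (vertical axis) in CTRL and YAP1 KO cells of each line; points are limma estimates and bars 95% intervals. All points are filled, meaning an adjusted p under 0.05; E2F1 lies furthest left, at -2.27 to -3.58, and RBL2 alone lies right of 0.

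Because the classes fell by different amounts, the make-up of E2F transcripts shifted towards the repressors. The summed FPKM of the 8 E2F genes fell from 106 to 49.3 in PC9 CTRL cells and from 82.0 to 30.9 in HCC4006 CTRL cells. Activators made up 39.1% of that sum under DMSO and 23.2% under OT in PC9, and 27.2% and 11.7% in HCC4006. Repressors went from 49.7% to 70.4% and from 62.2% to 86.0%, and the atypical pair from 11.3% to 6.43% and from 10.6% to 2.32%. E2F4 alone made up 49.7% of E2F transcripts in PC9 and 68.6% in HCC4006 under OT, from 34.0% and 52.3%. The ratio of activators to repressors went from 0.787 ± 0.0387 to 0.329 ± 0.0056 (SD, n = 3) in PC9 CTRL cells and from 0.438 ± 0.0203 to 0.136 ± 0.0142 in HCC4006 CTRL cells. In YAP1 KO cells it went from 0.712 ± 0.0444 to 0.205 ± 0.011 in PC9 and from 0.482 ± 0.0195 to 0.107 ± 0.0134 in HCC4006. E2F3 carried most of what remained: without it the ratio under OT was 0.159 and 0.0457 in PC9 CTRL and YAP1 KO cells and 0.0494 and 0.0305 in HCC4006.

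**Figure D3:**
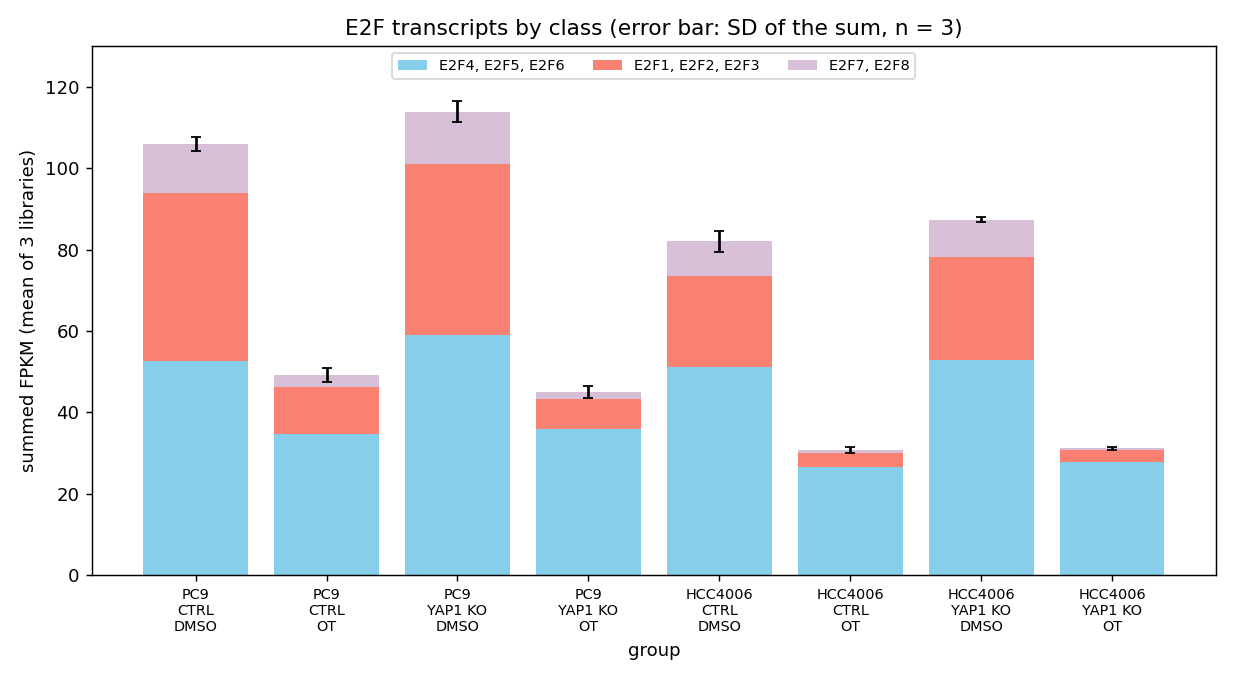
Summed FPKM of the E2F classes (vertical axis, from 0) in the 8 groups (horizontal axis), stacked as repressors, activators and atypical factors; bars are means of 3 libraries and error bars the SD of the whole sum. Under OT the repressors are most of each bar, 70.4% and 80.0% in PC9 CTRL and YAP1 KO cells and 86.0% and 89.2% in HCC4006.

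The genes around the members were read from lists. Of all genes, OT lowered 40.9% and raised 32.0% in PC9 CTRL cells, and lowered 36.6% and raised 45.0% in HCC4006 CTRL cells. In YAP1 KO cells 41.4% were lower in PC9 and 36.5% in HCC4006. All 26 E2F target genes of the G1/S transition were lower with OT in each of the 4 OT comparisons, with list medians of -1.65 and -2.42 in PC9 CTRL and YAP1 KO cells and -2.56 and -2.55 in HCC4006. Among them the licensing factor CDC6 changed by -2.32 in PC9 and -3.95 in HCC4006 CTRL cells, the replication helicase subunit GINS2 by -2.10 and -4.22, and RRM2, a subunit of ribonucleotide reductase, by -1.94 and -4.46. The 2 dimerization partners parted: TFDP1 fell by 1.0 in PC9 and 1.6 in HCC4006 CTRL cells, while TFDP2 rose by 0.19 and 0.77. In levels, TFDP1 went from 84.0 to 41.4 FPKM in PC9 CTRL cells and from 81.5 to 26.1 in HCC4006, and TFDP2 from 4.85 to 5.65 and from 3.92 to 7.4.

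Of 7 genes of the DREAM and MuvB complexes and the late cell cycle activators, 6 fell with OT in CTRL cells of each line and none rose. They included the MuvB subunit LIN9 (-1.30 in PC9, -1.53 in HCC4006) and 2 activators of G2 and M phase genes, MYBL2 (-1.54 and -3.57) and FOXM1 (-1.02 and -2.75). Of 9 cyclins and kinases tested that act on pocket proteins, 8 fell and 1 rose in CTRL cells of each line. Cyclin D1 (CCND1) changed by -1.22 in PC9 and -3.70 in HCC4006, cyclin E2 (CCNE2) by -1.94 and -2.48, and cyclin A2 (CCNA2) by -1.43 and -3.77. The inhibitors of those kinases were mixed, with 3 higher and 2 lower of 6 tested in PC9 and of 5 in HCC4006. CDKN1C rose by 0.88 in PC9 and 2.0 in HCC4006, CDKN2B rose by 1.82 in PC9 and was not tested in HCC4006, and CDKN2D fell by 0.98 and 1.17. In the E2F6 complex PRC1.6, 10 of 12 tested fell and 1 rose in PC9, and 8 fell and 3 rose in HCC4006, with the Polycomb subunit PCGF6 at -0.67 and -1.49 and WDR5 at -0.80 and -0.98. TFDP1 is counted in this list too. Beside the counts of these lists, 40.9% of all genes were lower and 32.0% higher in PC9 CTRL cells, and 36.6% and 45.0% in HCC4006. The filter limit holds for listed genes too. In HCC4006 CTRL cells CCNE2 averaged 7.45 FPKM under DMSO and 0.513 under OT, and CDKN1C 0.723 and 5.87. Each entered the test there through the group in which it was high, so these changes are description. How many other listed genes did so was not counted.

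Under DMSO the YAP1 KO cells differed from CTRL cells in few members. In PC9, 2 of 10 were called and both were higher, beside 39.9% of all genes called (19.8% higher, 20.0% lower). In HCC4006 it was 2 of 10, again both higher, beside 17.8% (9.20% higher, 8.65% lower). The PC9 share thus lay under its background and the HCC4006 share near it. In PC9 these were E2F5, at 14.8, 13.1 and 13.9 FPKM in YAP1 KO cells against 9.90, 9.58 and 10.6 in CTRL cells, and E2F7, at 4.63, 4.32 and 4.59 against 3.57, 3.70 and 3.69. E2F5 stood at 139% of CTRL (0.44, adjusted p 0.00011) and E2F7 at 124% (0.24, adjusted p 0.0113), without overlap. The E2F7 call was lost with a pseudocount of 0.1 (adjusted p 0.0950) or 0.01 (adjusted p 0.133) in place of 1. In HCC4006 they were the pocket proteins, RB1 at 15.0, 14.5 and 13.5 FPKM against 11.5, 11.7 and 13, and RBL2 at 10.1, 10.1 and 9.71 against 8.84, 7.83 and 9.24. RB1 stood at 119% (0.23, adjusted p 0.0278) and RBL2 at 115% (0.19, adjusted p 0.0335), without overlap. Both calls were lost when libraries were scaled to the same FPKM sum and when CTRL DMSO replicate 1 or 2, or YAP1 KO DMSO replicate 1 or 2, was left out. The RBL2 call was also lost without YAP1 KO DMSO replicate 3 (adjusted p 0.0552). E2F1 was not called, with -0.0010 in PC9 (adjusted p 0.993) beside 0.18 in HCC4006 (adjusted p 0.345). MKI67 differed by -0.25 in PC9 and 0.32 in HCC4006, both called, and its part in these differences was not tested.

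Under OT more members were called between the genotypes than under DMSO in both lines, and so were more of all genes. In PC9, 5 members were called, 4 lower in YAP1 KO cells and 1 higher, where 53.7% of all genes were called (28.5% higher, 25.2% lower). The share of members called thus lay near its background. E2F1 was at 1.71, 1.26 and 1.52 FPKM in treated YAP1 KO cells and at 5.0, 5.39 and 4.75 in treated CTRL cells. The genotypes did not overlap, and YAP1 KO cells held 29.7% of the CTRL level (-1.28 ± 0.07, SE, adjusted p 2.66e-08). E2F8 was at 1.46, 1.05 and 1.28 against 2.48, 2.47 and 2.32, 52.1% of CTRL (-0.60, adjusted p 8.80e-06). E2F2 was at 0.122, 0.0803 and 0.221 against 0.401, 0.479 and 0.557, 29.5% of CTRL (-0.37, adjusted p 0.000565). E2F7 was at 0.350, 0.413 and 0.303 against 0.878, 0.777 and 0.590, 47.5% of CTRL (-0.36, adjusted p 0.000601). For these 4 the YAP1 KO libraries were all below the CTRL libraries. The share of all genes without overlap was not counted, so this is not read as particular to the members. E2F2 and E2F7 lay below 1 FPKM in all PC9 OT libraries and passed the filter only through DMSO libraries. E2F5 was the one higher member, at 6.79, 7.56 and 6.44 against 6.0, 5.86 and 5.76 (118%, 0.20, adjusted p 0.0123), and this call was lost without YAP1 KO OT replicate 2 (adjusted p 0.0528). The other 5 were not called: E2F3 -0.04, E2F4 -0.02, E2F6 0.17, RB1 0.12 and RBL2 0.06. Of these, E2F6 (adjusted p 0.0509) was called in 7 of 11 other settings. MKI67 was lower by less, at -0.26 (adjusted p 0.000679), and its part in these differences was not tested.

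In HCC4006 under OT, 3 members were called, 1 lower and 2 higher, where 43.6% of all genes were called (27.2% higher, 16.4% lower). The share of members called thus lay under its background. E2F7 was lower in YAP1 KO cells, at 0.157, 0.176 and 0.383 FPKM against 0.493, 0.412 and 0.818, 41.6% of CTRL (-0.34, adjusted p 0.0172). All of these values lie below 1 FPKM, and the call was lost without CTRL OT replicate 3 (adjusted p 0.0636), without YAP1 KO OT replicate 1 (adjusted p 0.0664) and without YAP1 KO OT replicate 2 (adjusted p 0.0609). RB1 was higher, at 10.6, 10.2 and 10.4 against 8.82, 7.64 and 7.84 (128%, 0.33, adjusted p 0.0015), and so was RBL2, at 16.9, 16.2 and 15.9 against 13.8, 13.9 and 13.6 (119%, 0.23, adjusted p 0.00514). Neither pocket protein's libraries overlapped between genotypes. E2F1, at 1.03, 0.782 and 0.536 against 1.49, 1.27 and 0.760, overlapped and was not called (-0.28, adjusted p 0.0744). It was called without CTRL OT replicate 3 (-0.43, adjusted p 0.00493) or without YAP1 KO OT replicate 1 (-0.38, adjusted p 0.0320). E2F2 was at 0.0872, 0.0690 and 0.0335 against 0.212, 0.10 and 0.110, 44.8% of CTRL and without overlap. On the log2(FPKM + 1) scale this was -0.10 (adjusted p 0.239) and not called, while a pseudocount of 0.01 gave -1.05 (adjusted p 0.0432). E2F8 (0.01) was not called. MKI67 was at 53.8% of CTRL here (-0.42, adjusted p 0.00204), and its part was not tested.

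**Figure D4:**
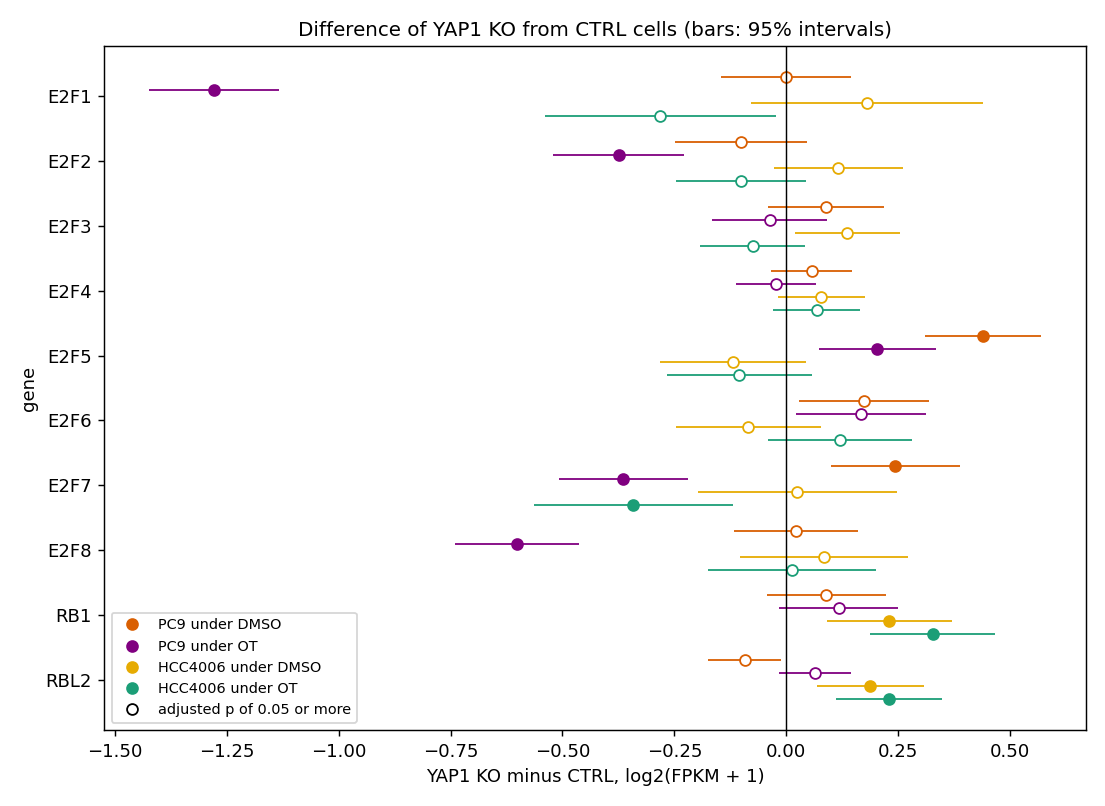
Difference of YAP1 KO from CTRL cells on the log2(FPKM + 1) scale (horizontal axis) for the 10 members (vertical axis), under DMSO and under OT in each line; points are limma estimates, bars 95% intervals, and open points have an adjusted p of 0.05 or more. PC9 under OT has E2F1 at -1.28, E2F8 at -0.60, E2F2 at -0.37 and E2F7 at -0.36, while under DMSO no filled point lies left of 0.

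The G1/S target list read as follows in the same comparisons. Of all genes, 25.2% were lower and 28.5% higher in PC9 under OT, and 16.4% and 27.2% in HCC4006. The DMSO shares were 20.0% lower and 19.8% higher in PC9, and 8.65% and 9.20% in HCC4006. In PC9 under OT all 26 genes were lower in YAP1 KO cells (median -0.64), among them RRM2 (-1.61), CDC6 (-1.39) and GINS2 (-1.37). In HCC4006 under OT 13 were lower and 4 higher (median -0.16), with RRM2 at -0.60, GINS2 at -0.44 and CDC6 at -0.37. Under DMSO PC9 had 5 of the 26 higher and 8 lower, while HCC4006 had 1 and 3. Of the cyclins and kinases, 7 of 9 were lower and none higher in treated YAP1 KO cells of PC9, and 3 were lower and 2 higher in HCC4006. CCND1 was lower in both lines (-0.97 and -0.72), and CCNE2 was lower by 1.11 on the log2 scale in PC9, with a value of -0.06 that was not called in HCC4006. TFDP1 was lower in PC9 (-0.37) and had a difference of 0.04 in HCC4006, not called.

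Whether the OT response itself differed between genotypes was tested as an interaction, the OT change of YAP1 KO cells less that of CTRL cells. In PC9, 4 members were called, 3 with a larger fall and RBL2 with a larger rise, where 27.0% of all genes were called (13.2% higher, 13.8% lower). The values were -1.28 ± 0.09 for E2F1 (SE, adjusted p 3.01e-06), -0.62 for E2F8 (adjusted p 0.000357), -0.61 for E2F7 (adjusted p 0.000547) and 0.16 for RBL2 (adjusted p 0.0436). The RBL2 call was lost in 10 of the 12 fits that left out 1 PC9 library and in 4 of 11 other settings, with adjusted p from 0.0172 to 0.103. E2F2 had -0.27 (adjusted p 0.0519) on this scale, and with a pseudocount of 0.1 it was called at -1.15 (adjusted p 0.0108). E2F2 and E2F7 passed the filter in PC9 only through DMSO libraries. Their values are therefore description, and the E2F7 call adds no support to the count. MKI67 had an interaction of -0.01 in PC9 (adjusted p 0.963).

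In HCC4006 no member was called in the interaction by limma, where 18.6% of all genes were (10.5% higher, 8.18% lower), and 4 members had an unadjusted p under 0.05. The nearest were E2F3 (-0.21, adjusted p 0.0747), E2F1 (-0.46, adjusted p 0.0784) and E2F7 (-0.37, adjusted p 0.102). E2F1 was called without CTRL OT replicate 3 (-0.61, adjusted p 0.00826) and without YAP1 KO OT replicate 1 (-0.56, adjusted p 0.0428). MKI67 was called here at -0.74 (adjusted p 0.00139). The difference between the lines in this interaction, HCC4006 minus PC9, was added after these values were seen. It was called for 2 of 10 members, beside 13.5% of 11845 genes (7.06% higher, 6.40% lower): E2F1 at 0.82 ± 0.20 (SE, adjusted p 0.00925) and E2F8 at 0.55 ± 0.15 (SE, adjusted p 0.0182). Neither was called with a pseudocount of 0.1 or 0.01, and both genes are near or below 1 FPKM in HCC4006 under OT. E2F7 and E2F8 passed the filter in HCC4006 only through DMSO libraries, so their values are description. The other 8 were not called, among them E2F7, whose difference of 0.24 has a 95% interval from -0.12 to 0.60.

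The lines also differed before and in treatment. In CTRL cells under DMSO all 10 members were called between the lines, beside 82.1% of 11845 genes (37.7% higher, 44.4% lower in HCC4006), with 3 higher and 7 lower in HCC4006. Higher in HCC4006 were RB1 (0.80), E2F7 (0.51) and E2F4 (0.25). Lower were E2F3 (-1.53), E2F5 (-1.52), E2F8 (-1.20), RBL2 (-0.71), E2F1 (-0.64), E2F2 (-0.33) and E2F6 (-0.27). The E2F2 call was lost with a pseudocount of 0.01 (-0.52, adjusted p 0.169). Under DMSO the pocket protein with the higher FPKM was RBL2 in PC9 and RB1 in HCC4006, while under OT it was RBL2 in both lines.

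The OT change in CTRL cells differed between the lines for 6 of 10 members, beside 65.2% of all genes (38.1% higher, 27.1% lower). The fall was larger in HCC4006 for E2F1 (-0.85, adjusted p 2.61e-05), E2F7 (-0.66), E2F4 (-0.45) and E2F8 (-0.39). E2F2 and E2F7 in both lines and E2F8 in HCC4006 passed the filter only through DMSO libraries. Their differences in OT response, in CTRL and in YAP1 KO cells, are therefore description and no support for the counts. The fall of E2F3 was smaller (0.47), and the rise of RBL2 was larger (0.27, adjusted p 0.00102). The E2F8 difference ranged from -2.62 to -0.31 over the alternatives. E2F2 was called with a pseudocount of 0.1 (-0.79, adjusted p 0.0235) or 0.01 (-1.23, adjusted p 0.0333). E2F5 (0.30, adjusted p 0.00843) and RB1 (0.30, adjusted p 0.0220) were called when libraries were scaled to the same FPKM sum. In YAP1 KO cells 7 of 10 differed, beside 63.7% (38.4% higher, 25.3% lower). The fall was again larger in HCC4006 for E2F7 (-0.42) and E2F4 (-0.38) and smaller for E2F5 (0.45), E2F3 (0.39), E2F6 (0.27) and RB1 (0.22), and the rise of RBL2 was larger (0.15, adjusted p 0.0422). Median-of-ratios scaling ended the calls of E2F6 (0.15, adjusted p 0.214), RB1 (0.097, adjusted p 0.342) and RBL2 (0.022, adjusted p 0.756), which were also lost in 6, 6 and 7 of the 24 fits that left out 1 library. E2F1 differed by -0.04 (adjusted p 0.838, 95% interval from -0.33 to 0.26). E2F8 read 0.16 (adjusted p 0.195), but -1.16 (adjusted p 0.000383) with a pseudocount of 0.1, so its direction depends on the pseudocount. MKI67 fell further in HCC4006 by 1.83 in CTRL and 2.57 in YAP1 KO cells, and its part in these differences was not tested.

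Across the 8 group means, each centred on its line, the members moved in near parallel, as a description over points that share the OT contrast. E2F1 correlated with E2F2 and E2F8 at 1.00 (Pearson r), with E2F7 at 0.99, with E2F4 at 0.96, with E2F3 at 0.91, with RB1 at 0.87 and with E2F5 at 0.84. RBL2 ran against all of them, from -0.76 with RB1 to -0.98 with E2F7. The 3 genes closest to E2F1 were FANCA, ATAD2 and TPM3 (0.999, 0.999 and 0.998) of 11717 compared, and 2368 genes exceeded 0.9, so such likeness is common here. Closest to E2F4 were UTP18, RPF2 and PSMG3 (0.999 each), to E2F8 WDR76 and MCM3 (0.999 each), and to RBL2 OSER1, ROGDI and PRUNE (0.999, 0.995 and 0.994).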

How the data were processed

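Messenger RNA of 24 cell line libraries was measured with a stranded kit, per the labels' protocols. The deposited table holds the authors' FPKM, with 1 column per library and 25365 rows, in which the headers write NOTX where the labels say DMSO. STAR 2.5.1b, Cufflinks 2.2.1 and DESeq2 1.10.1 and the builds hg19 and GRCh37 are named, without role or order, per the submitters' processing notes, and the annotation used is not stated there. Libraries were grouped by their labels. FPKM are not counts, so limma 3.58.1 in R 4.3.3 was fitted to log2(FPKM + 1), with 4 groups per line (12 libraries, 8 residual degrees of freedom) and an intensity trend. Differences between lines used 1 fit of 24 libraries. Genes needed at least 1 FPKM in at least 3 of the 12 libraries, in both lines for differences between them, and a call needed an adjusted p (Benjamini-Hochberg) under 0.05 over all genes tested. The fit was checked on simulated data.

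The members, lists and motif words were chosen with earlier results of these data known. All members are named in every comparison, with YAP1 and MKI67, up to 3 genes per list with the largest mean OT change in CTRL cells, and the 3 genes most like E2F1, E2F4, E2F8 and RBL2, of which 1 is not reported here. Alternatives were other pseudocounts, filters, scalings, spread estimates and libraries in the fit, a replicate block and leaving out each library. Promoter sequences are RefSeq's (GRCh38.p14), a build other than that of the table, from which no coordinates were used. E2F5 and E2F8 have none here. FPKM give no depth per value, so no counting interval is given.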

Additional observations from a re-analysis of the deposited data

Results flagged for a closer look

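Members whose OT response differed by a test of the difference itself are listed here with their values on the log2(FPKM + 1) scale (limma). Between genotypes in PC9 (YAP1 KO minus CTRL) these were E2F1 (-1.28), E2F7 (-0.61), E2F8 (-0.62) and RBL2 (0.16). Between lines in CTRL cells (HCC4006 minus PC9) they were E2F1 (-0.85), E2F3 (0.47), E2F4 (-0.45), E2F7 (-0.66), E2F8 (-0.39) and RBL2 (0.27). Between lines in YAP1 KO cells they were E2F3 (0.39), E2F4 (-0.38), E2F5 (0.45), E2F6 (0.27), E2F7 (-0.42), RB1 (0.22) and RBL2 (0.15). Between lines in the interaction of genotype and OT they were E2F1 (0.82) and E2F8 (0.55).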

How the results depend on the processing

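Of 908 member values of OT against DMSO under the alternatives, 906 kept their direction and call, and both exceptions were E2F6 in HCC4006 YAP1 KO cells. Of 140 member results, 96 kept both under every alternative run. Scaling to the same FPKM sum moved the median OT change of all genes in HCC4006 CTRL cells from 0.09 to 0.27 and the share of called genes that were higher from 55.1% to 66.3%. Median-of-ratios scaling moved that share from 62.3% to 50.4% for YAP1 KO against CTRL under OT in HCC4006, and from 58.4% to 47.5% and 60.3% to 46.6% for the OT responses of the lines in CTRL and YAP1 KO cells, which same-sum scaling without short RNAs moved to 74.5% and 72.6%. In PC9 the same-sum scaling without short RNAs moved it from 53.0% to 63.4% under OT and from 48.9% to 65.2% in the interaction. Same-sum scaling moved it from 51.5% to 61.8% in HCC4006 under DMSO and from 52.4% to 41.1% for the interaction between lines.

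These counts of members called moved by more than 1.5 times. For YAP1 KO against CTRL under DMSO in PC9 (2 members) the count was 1 with a pseudocount of 0.1 or 0.01, 1 with a filter at 5 FPKM, 4 with the replicate block and 2 to 4 with 1 library left out, the 4 without YAP1 KO OT replicate 2. In HCC4006 (2 members) it was 0 with either same-sum scaling and 0 to 2 with 1 library left out. With the 5 FPKM filter, which tests fewer genes, it was 3 for PC9 under OT, 6 for both OT comparisons of HCC4006, 5 between lines under DMSO, 3 and 4 for the OT responses between lines in CTRL and YAP1 KO cells and 1 for the interaction between lines. The interaction in HCC4006 (0 members) gave 1 with no intensity trend, 3 with all 24 libraries in the fit, 1 with the replicate block and 0 to 1 with 1 library left out. The OT responses between lines in YAP1 KO cells gave 4 with median-of-ratios scaling, and the interaction between lines gave 0 with either lower pseudocount and 1 with either same-sum scaling. Counts that moved by less gained E2F6 and RBL2 in PC9 under OT with either same-sum scaling (7 called), E2F2 and E2F5 in the PC9 interaction with median-of-ratios scaling, which lost RBL2 (5 called), and E2F5 and RB1 in the CTRL line difference of OT responses with either same-sum scaling (8 called). The cause was not tested.

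The replicate block called E2F6 and RBL2 besides E2F5 and E2F7 in PC9 under DMSO, E2F6 in PC9 under OT, and E2F1 in HCC4006 under OT and in its interaction (adjusted p 0.0384 and 0.0428), and lost no member's call. Replicate numbers share only a number: deviations of same-numbered libraries correlated at -0.264 to 0.161 in PC9 and -0.150 to 0.236 in HCC4006, and 4 and 7 of 12 libraries correlated best with their own number.

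The ratio of activators to repressors depends on the genes in it. Without E2F6 it was 0.899, 0.376, 0.817 and 0.237 in PC9 (CTRL DMSO, CTRL OT, YAP1 KO DMSO, YAP1 KO OT) and 0.488, 0.157, 0.531 and 0.125 in HCC4006, and without E2F3 0.573, 0.159, 0.507 and 0.0457, and 0.374, 0.0494, 0.412 and 0.0305.

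Directions turned only in differences that were not called. With either same-sum scaling E2F4 in PC9 under OT was 0.017 and 0.028, E2F1 in the YAP1 KO line difference of OT responses 0.015 and 0.045, E2F2 in the CTRL one 0.0038 and 0.016, E2F6 in the PC9 interaction 0.029 and 0.041, E2F5 in the HCC4006 interaction -0.011 with the first, and E2F3 in PC9 under OT 0.0083 with the second. With pseudocounts of 0.1 and 0.01 E2F6 in the PC9 interaction was 0.0031 and 0.0044, E2F5 in the HCC4006 interaction -0.00028 and -0.0035, and in the YAP1 KO line difference E2F2 was -0.37 and -0.84 and E2F8 -1.16 and -1.76, of which the E2F8 values were called. At 0.01 E2F8 in HCC4006 under OT was -0.0010. Median-of-ratios scaling gave E2F5 -0.0041 in the HCC4006 interaction, E2F6 -0.041 in the CTRL line difference and E2F2 -0.024 in the YAP1 KO one. With 1 library left out the ranges across 0 were E2F1 -0.034 to 0.035 and E2F8 -0.0037 to 0.052 in PC9 under DMSO, E2F3 -0.074 to 0.024 in PC9 under OT, E2F6 -0.084 to 0.038 and RB1 -0.011 to 0.084 in the PC9 interaction, E2F7 -0.032 to 0.063 in HCC4006 under DMSO, E2F8 -0.048 to 0.058 in HCC4006 under OT, E2F4 -0.047 to 0.031, E2F5 -0.045 to 0.075 and RBL2 -0.0037 to 0.10 in the HCC4006 interaction, and E2F1 -0.13 to 0.067 and E2F2 -0.027 to 0.061 in the YAP1 KO line difference. In that line difference RB1, RBL2 and E2F6 lost their calls with median-of-ratios scaling and in 6, 7 and 6 of 24 fits with 1 library left out, and RBL2 also with robust moderation (adjusted p 0.0536).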
